A study of Mus musculus with 79 samples.

Results

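The 9 genes described here belong to the MHC class I pathway and were measured in the quadriceps of male BXD mice, a family of inbred strains bred from crosses of C57BL/6J (B6) with DBA/2J (D2). They were H2-K1, H2-D1, B2m, Tap1, Tap2, Tapbp, Psmb8, Psmb9 and Psmb10, a set named by symbol for their roles in the pathway, with earlier results of these data known. All 9 were on the array, 1 probeset each, among 22335 gene symbols. RNA was hybridised to Affymetrix Mouse Gene 1.0 ST arrays, and each of the 79 arrays held a pool of about 5 males of 1 strain on 1 diet. The chow diet (CD, Harlan 2018) group had 42 arrays, from 40 BXD strains and both parents. The high fat diet (HFD, Harlan 06414) group had 37 arrays, from 35 of those BXD strains and both parents, fed that diet from 8 weeks of age. All mice were fasted overnight and sacrificed at 29 weeks. Single animals were not measured, so the strain pool was the unit of replication. Values are scores, with a mean of 8.0 and an SD of 2.0 set on every array. They behave as logarithms, but their base was not given, so 1 unit is not necessarily a doubling.

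MHC class I molecules stand on nearly all nucleated cells and show peptides from the cell's own proteins to CD8+ T cells. Proteasomes cut the proteins into peptides, the TAP transporter carries the peptides into the endoplasmic reticulum, and tapasin and other chaperones load them onto a heavy chain bound to beta-2 microglobulin. Interferons raise the transcription of nearly every step, partly through the regulator NLRC5, while skeletal muscle fibres at rest are known for low class I levels. Muscle also holds endothelial cells, macrophages and fat cells, which carry class I molecules too. In pooled tissue, more cells of such a type cannot be told apart from more RNA per cell.

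In the RefSeq gene table (GRCm38.p6), 7 of the 9 genes are on chromosome 17, in the order Tapbp, H2-K1, Psmb9, Tap1, Psmb8, Tap2 and H2-D1. No other protein-coding gene or pseudogene of that table lies between Psmb9, Tap1, Psmb8 and Tap2. B2m is on chromosome 2 and Psmb10 on chromosome 8. Promoter sequences were held for 8 genes, all but Tap2. The stretches shown were chosen because H2-K1 and H2-D1 varied together most closely of all pairs, B2m differed most between diets, and Tap1 and Psmb9 share a promoter. For H2-K1 the table holds 2 starts, and the first listed is shown. The other lies 14 bases downstream. The bases before the annotated start, from RefSeq, are given 5′ to 3′ on the gene's strand for H2-K1 (chr17:34000348-34000597, minus strand), H2-D1 (chr17:35262844-35263093, plus strand) and B2m (chr2:122147437-122147686, plus strand). The stretch from Psmb9 to Tap1 (chr17:34187331-34187555) is the 225 bases between the starts of these 2 genes, which face away from each other, and is written on the plus strand. Capitals mark matches to 4 motifs on either strand.
H2-K1: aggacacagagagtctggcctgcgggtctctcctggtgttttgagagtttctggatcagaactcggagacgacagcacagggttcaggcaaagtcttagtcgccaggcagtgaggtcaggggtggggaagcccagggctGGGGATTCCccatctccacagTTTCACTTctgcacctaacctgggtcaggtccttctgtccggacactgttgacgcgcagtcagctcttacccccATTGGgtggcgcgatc
H2-D1: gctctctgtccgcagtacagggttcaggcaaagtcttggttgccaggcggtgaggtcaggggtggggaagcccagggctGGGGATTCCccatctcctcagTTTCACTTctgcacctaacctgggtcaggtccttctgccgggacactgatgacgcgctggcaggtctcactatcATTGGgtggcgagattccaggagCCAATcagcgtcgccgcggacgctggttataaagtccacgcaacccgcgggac
B2m: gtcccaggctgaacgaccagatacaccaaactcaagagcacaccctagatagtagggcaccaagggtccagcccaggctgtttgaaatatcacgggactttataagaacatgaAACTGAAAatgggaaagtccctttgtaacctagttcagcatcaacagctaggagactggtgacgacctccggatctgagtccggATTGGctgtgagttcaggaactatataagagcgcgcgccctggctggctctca
Psmb9 to Tap1: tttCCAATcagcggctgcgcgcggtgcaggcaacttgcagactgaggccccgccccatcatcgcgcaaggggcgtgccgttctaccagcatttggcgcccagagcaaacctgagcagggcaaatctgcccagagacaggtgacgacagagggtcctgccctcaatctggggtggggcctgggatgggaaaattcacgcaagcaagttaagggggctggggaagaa

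The motifs were a kappa B type (GGGNNTTCC), the core bound by interferon regulatory factors (AANNGAAA), a gamma-activated type (TTCNNNGAA) and the CCAAT box, where N is any base. Over 250 bases before the start, they occurred in 4.98%, 21.3%, 7.02% and 33.9% of the 32851 promoters in the table. The H2-K1 and H2-D1 stretches aligned over 190 bases, 166 of them identical (87.4%), with a longest shared run of 47 bases. Both held 1 kappa B match followed by 1 interferon regulatory factor match, and no matches overlapped. H2-K1 also held 1 CCAAT box and H2-D1 2, and the window of the other H2-K1 start held 2. B2m held 1 interferon regulatory factor match and 1 CCAAT box. Tap1, Tapbp and Psmb9 held CCAAT boxes alone, Psmb8 held 1 gamma-activated match, and Psmb10 held none of the 4. A match describes letters and is not evidence of binding.

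The diet comparison asked whether class I genes differed between CD and HFD muscle. B2m, H2-K1 and Psmb10 rose on HFD, and none of the 9 genes fell in the fit over all 79 arrays. With strain as a block, H2-D1 also rose (limma adjusted p = 0.0329) and Tap1 fell (limma adjusted p = 0.0360). B2m had the largest difference, 0.32 ± 0.06 score units (SE), followed by H2-K1 with 0.19 ± 0.06 and Psmb10 with 0.10 ± 0.04. A gene was called where limma, with batch as a term, gave an adjusted p below 0.05 over all 35556 probesets. By that rule 3 of 9 genes were called higher, beside 18.9% of all probesets, and 0 of 9 lower, beside 19.3%. In either direction 38.1% of all probesets were called, so the 3 of 9 is close to the background. At an unadjusted p below 0.05 the count was also 3. The median difference was 0.06 over the 9 genes and -0.00066 over all probesets.

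H2-K1 and H2-D1 encode the classical heavy chains, the part that holds the peptide. H2-K1 ranged from 9.96 to 11 (median 10.51) over the 42 CD arrays and from 10.05 to 11.25 (median 10.70) over the 37 HFD arrays. The groups overlapped widely, with 5 HFD arrays above every CD array. H2-K1 was higher on HFD in 32 of 37 strains with both diets (limma adjusted p = 0.010), and the strain differences ran from -0.37 in BXD61 to 0.81 in BXD79. H2-D1 ranged from 10.66 to 11.63 (median 10.997) on CD and from 10.62 to 11.63 (median 11.09) on HFD, so the 2 ranges nearly coincided. Its difference of 0.09 ± 0.05 was not called (limma adjusted p = 0.173), although 24 of 37 strains were higher on HFD.

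B2m encodes beta-2 microglobulin, the light chain that all class I heavy chains share. It ranged from 12.18 to 13.49 (median 12.80) on CD and from 12.58 to 13.68 (median 13.16) on HFD. The ranges overlapped, and 5 HFD arrays exceeded every CD array. The difference was positive in 35 of 37 strains (limma adjusted p = 7.7e-06), from -0.20 in BXD63 to 0.75 in B6. Only 1.52% of all probesets had a difference at or above that of B2m, against 7.23% for H2-K1.

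**Figure D1:**
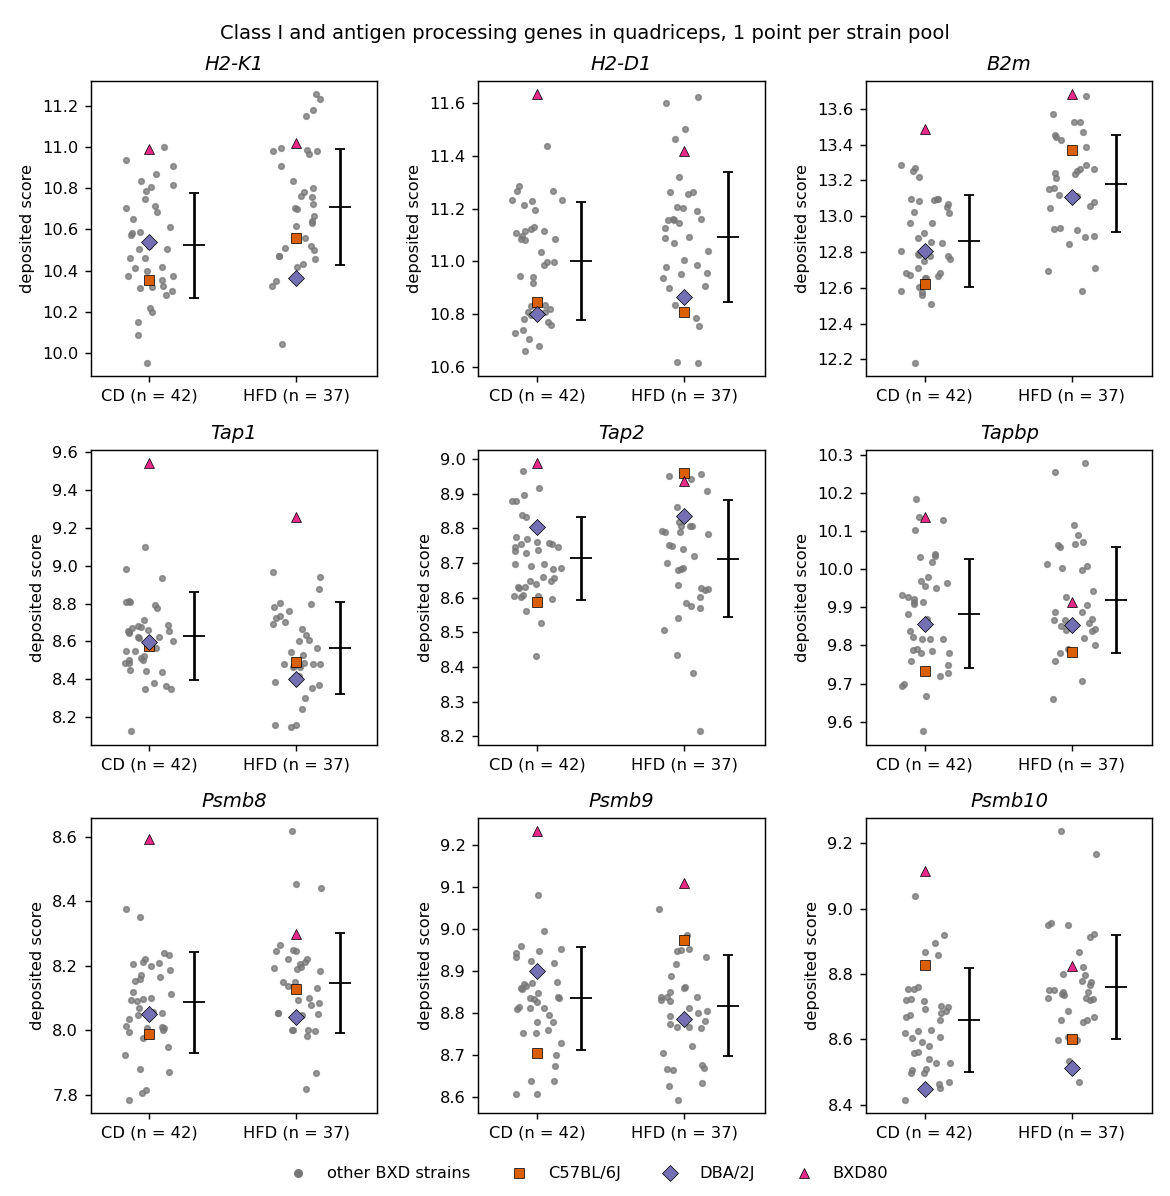
Deposited score (vertical axes, a different range in each panel) of the 9 genes on CD (42 arrays) and HFD (37 arrays), with 1 point per strain pool, and the mean ± SD of each group as a bar. B2m and H2-K1 sit higher on HFD with overlapping groups, while BXD80, drawn as a triangle, stands at or near the top for most genes on CD.

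Tap1 and Tap2 encode the 2 subunits of the peptide transporter. Tap1 ranged from 8.13 to 9.54 (median 8.62) on CD and from 8.15 to 9.26 (median 8.53) on HFD. It was higher on HFD in 12 of 37 strains, with a difference of -0.06 ± 0.05 that was not called (limma adjusted p = 0.359). Tap2 ranged from 8.43 to 8.99 (median 8.70) on CD and from 8.22 to 8.96 (median 8.74) on HFD. Its difference was -0.00055 ± 0.03, with a 95% interval from -0.07 to 0.07. Tapbp, which encodes tapasin, ranged from 9.58 to 10.18 (median 9.88) on CD and from 9.66 to 10.28 (median 9.87) on HFD, and its difference of 0.03 ± 0.03 was not called. The ranges of the diet groups overlapped widely for these 3 genes, though Tap1 was called lower with strain as a block.

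Psmb8, Psmb9 and Psmb10 encode the catalytic subunits that replace Psmb5, Psmb6 and Psmb7 in the immunoproteasome. Psmb8 ranged from 7.79 to 8.59 (median 8.08) on CD and from 7.82 to 8.62 (median 8.14) on HFD, a difference of 0.06 ± 0.04 that was not called. Psmb9 ranged from 8.61 to 9.23 (median 8.84) on CD and from 8.59 to 9.11 (median 8.81) on HFD, a difference of -0.02 ± 0.03. Psmb10, from 8.42 to 9.12 (median 8.64) on CD and from 8.47 to 9.24 (median 8.75) on HFD, was the 1 subunit of the 3 that was called (limma adjusted p = 0.0201), and was higher in 28 of 37 strains. Of the constitutive counterparts, Psmb7 fell by 0.08 (SE 0.03, limma adjusted p = 0.0429), and Psmb5 and Psmb6 were not called. Whether the difference of Psmb10 differs from that of Psmb8 or Psmb9 was not tested.

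Comparing each strain with itself left more genes called. With strain as a replicate block over the 37 paired strains, H2-D1 was called higher (0.09 ± 0.03, limma adjusted p = 0.0329) and Tap1 lower (-0.09 ± 0.03, limma adjusted p = 0.0360), so 5 of 9 genes were called, beside 40.6% of all probesets in that fit. B2m was the 1 gene called within each batch, with differences of 0.32 in batch 1 and 0.32 in batch 2, beside 12.6% and 24.4% of all probesets. H2-K1 kept its direction, with 0.22 in batch 1 and 0.16 in batch 2, and so did Psmb10, with 0.10 in both, but neither was called within a batch. Leaving out BXD63 or BXD80 gave 3 of 9 called in both cases.

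**Figure D2:**
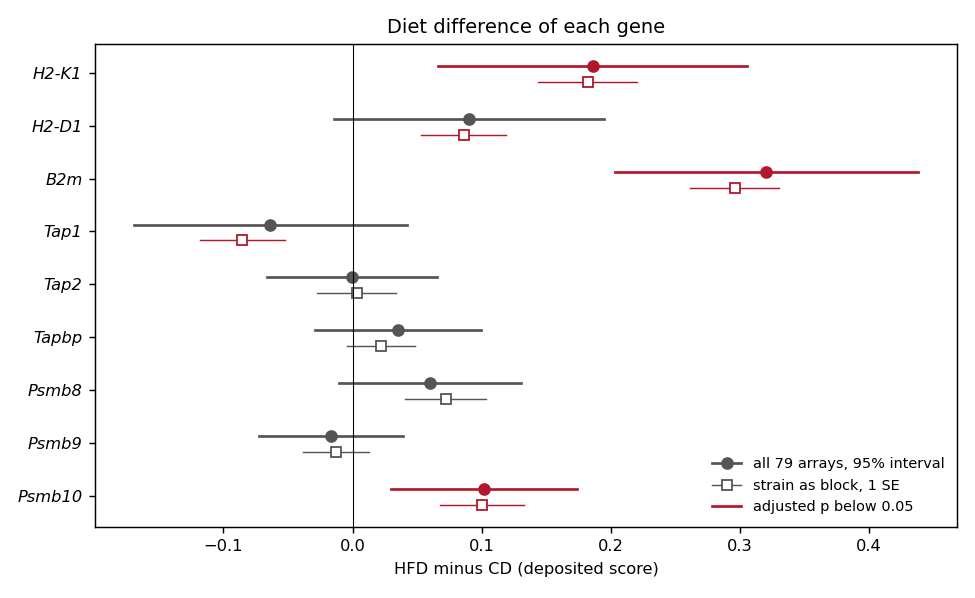
Difference between HFD and CD (horizontal axis, score units) of each gene, with filled circles for the fit over 79 arrays and its 95% interval, and open squares for the fit with strain as a block and 1 SE. Red marks an adjusted p below 0.05, which B2m, H2-K1 and Psmb10 reached in both fits and H2-D1 and Tap1 in the block fit alone.

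Among 17 companions of the pathway, 4 rose and 2 fell, beside 18.9% and 19.3% of all probesets. Pdia3, a member of the peptide-loading complex, rose by 0.23 ± 0.04 (higher in 34 of 37 strains), and the lectin chaperones Canx and Calr rose by 0.12 ± 0.03 and 0.09 ± 0.03. Rfx5, part of the factor that binds class I and class II promoters, rose by 0.10 ± 0.03. Tapbpl, a tapasin relative, fell by 0.08, as Psmb7 did. Nlrc5 itself had a difference of -0.04 ± 0.05 and was not called.

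Among 18 of 21 listed further class I genes that were measured, 4 rose and 4 fell, again beside 18.9% and 19.3% of all probesets. Cd1d1, which presents lipids, rose by 0.595 ± 0.094, and H2-T23, which presents leader peptides of other class I chains, rose by 0.16 ± 0.05. H2-T24 and H2-T22 rose by 0.15 ± 0.05 and 0.135 ± 0.048. Mr1, which presents vitamin B metabolites, fell by 0.195, and H2-T3, H2-Bl and H2-M2 fell by 0.18, 0.11 and 0.11. Of 18 measured interferon response genes, 8 rose and 2 fell, beside the same shares, with a median difference of 0.14. The largest rises were Cxcl9 at 0.39 ± 0.10 and Mx1 at 0.345 ± 0.033, whereas Isg15 fell by 0.18 and Gbp3 by 0.17. Mx1 was dim, with means of 5.80 on CD and 6.14 on HFD, and so was Isg15, with 7.12 and 6.94. The median probeset mean was 7.855.

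Some markers of other cell types also moved with diet, beside 18.9% of all probesets called higher and 19.3% called lower. Macrophage and myeloid markers were called higher in 6 of 9 measured genes, and their summed score ran from 72.0 to 77.9 on CD and from 73.4 to 80.8 on HFD. Endothelial markers were higher in 4 of 6 (58.0 to 62.5 on CD, 59.8 to 63.0 on HFD). Fat cell markers were higher in 4 of 6 and lower in 1 (52.7 to 63.6 on CD, 53.6 to 66.7 on HFD). T and NK cell markers split 2 higher and 2 lower of 7 (47.9 to 50.8 on CD, 47.9 to 50.7 on HFD), and B cell markers had 0 higher and 2 lower of 4 (27.4 to 29.1 on CD, 26.9 to 29.1 on HFD). The score has no zero, so absence of a marker cannot be read from it. T and NK cell markers and B cell markers had median scores of 7.04 and 6.94, below the median probeset mean of 7.855. Muscle markers had 1 of 6 higher and 1 lower, with a median score of 14.7 that put the labelled tissue far above the array mean of 8.0. Fibroblast and red blood cell markers, 3 each, had limma adjusted p between 0.0939 and 0.959. The part of these cells in the differences of B2m, H2-K1 and Psmb10 was not tested.

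The parental comparison asked whether B6 and D2 differ. Each parent had 1 array per diet, and the spread was borrowed from the paired strains. None of the 9 genes was called between the parents with limma, and none of them had an unadjusted p below 0.05, beside 1.26% of all probesets called. Among the 9, Psmb10 had the largest difference. Its scores were 8.83 on CD and 8.60 on HFD in B6, against 8.45 and 8.51 in D2. B6 was the higher parent on both diets, but the difference of 0.23 ± 0.14 was not called (limma adjusted p = 0.756). H2-K1 scored 10.36 and 10.56 in B6, against 10.54 and 10.36 in D2, so the parents changed order with diet. H2-D1 was close in all 4 arrays, at 10.85 and 10.81 in B6 and 10.80 and 10.86 in D2. B2m scored 12.62 on CD and 13.37 on HFD in B6, and 12.80 and 13.11 in D2.

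For several genes, many BXD strains fell outside the values of both parents. For H2-D1, 26 of 40 BXD strains lay above both parents on CD and 30 of 35 on HFD, with 9 and 4 below both. For Psmb8 the counts were 24 of 40 and 20 of 35 above, with 8 and 7 below. For Psmb10 they differed by diet, with 6 of 40 above both parents on CD and 31 of 35 on HFD. For Tap2, 3 of 40 lay below both parents on CD and 29 of 35 on HFD. All 40 lay outside the parents for Tap1 on CD, 23 above and 17 below, where B6 scored 8.575 and D2 8.598. On CD, H2-K1, B2m, Tapbp and Psmb9 had 18, 20, 22 and 11 of 40 above both parents and 12, 6, 6 and 6 below. On HFD they had 24, 10, 22 and 3 of 35 above and 3, 13, 4 and 14 below. These counts rest on 1 array per parent and diet, and they are larger where the 2 parental values lie close together. The share over all probesets was not computed. Among the 18 other class I genes, 2 were called between parents, beside 1.26% of all probesets. H2-Q8 was lower in B6 by a signed difference of -0.47 (limma adjusted p = 0.0292), and Hfe, an iron regulator, was higher in B6 by 0.56 (limma adjusted p = 0.0180).

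The strain values of a gene under 1 strong local variant tend to fall into 2 clusters, so each gene was examined for such a split. This was a description with no test. A smaller local effect need not form clusters, and whether local variants act on the 9 genes was not tested. None of the 9 genes formed separate clusters, defined as a BIC lower by at least 10 for 2 normal components and an Ashman's D above 2. Of all probesets 1.61% met that rule, so 0 of 9 is close to the background. The drop in BIC with the second component ran from -11.5 for Tapbp, a rise, to 7.3 for Tap1, where that component was the single strain BXD80. H2-Ea-ps, a class II pseudogene between Tap2 and H2-D1 on the chromosome, was picked because its strains fell into 2 clusters in an earlier report. Its split is therefore no new result. The second component lowered its BIC by 115.3 and split the strains into 27 at 6.26 to 6.90 and 15 at 9.01 to 10.70. B6 fell in the low cluster and D2 in the high one. The ranges of all 9 class I genes overlapped between these clusters. Ranges can overlap where means differ, and a difference in mean between the clusters was not tested. The share of all probesets with overlapping ranges was not computed. H2-K1 ran from 10.11 to 11.06 over the 27 low strains and from 10.15 to 11.005 over the 15 high strains, Tap1 from 8.09 to 8.80 and from 8.30 to 9.41, and Psmb9 from 8.64 to 9.00 and from 8.64 to 9.18. These ranges are strain values, the mean over diets after batch means were removed.

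**Figure D3:**
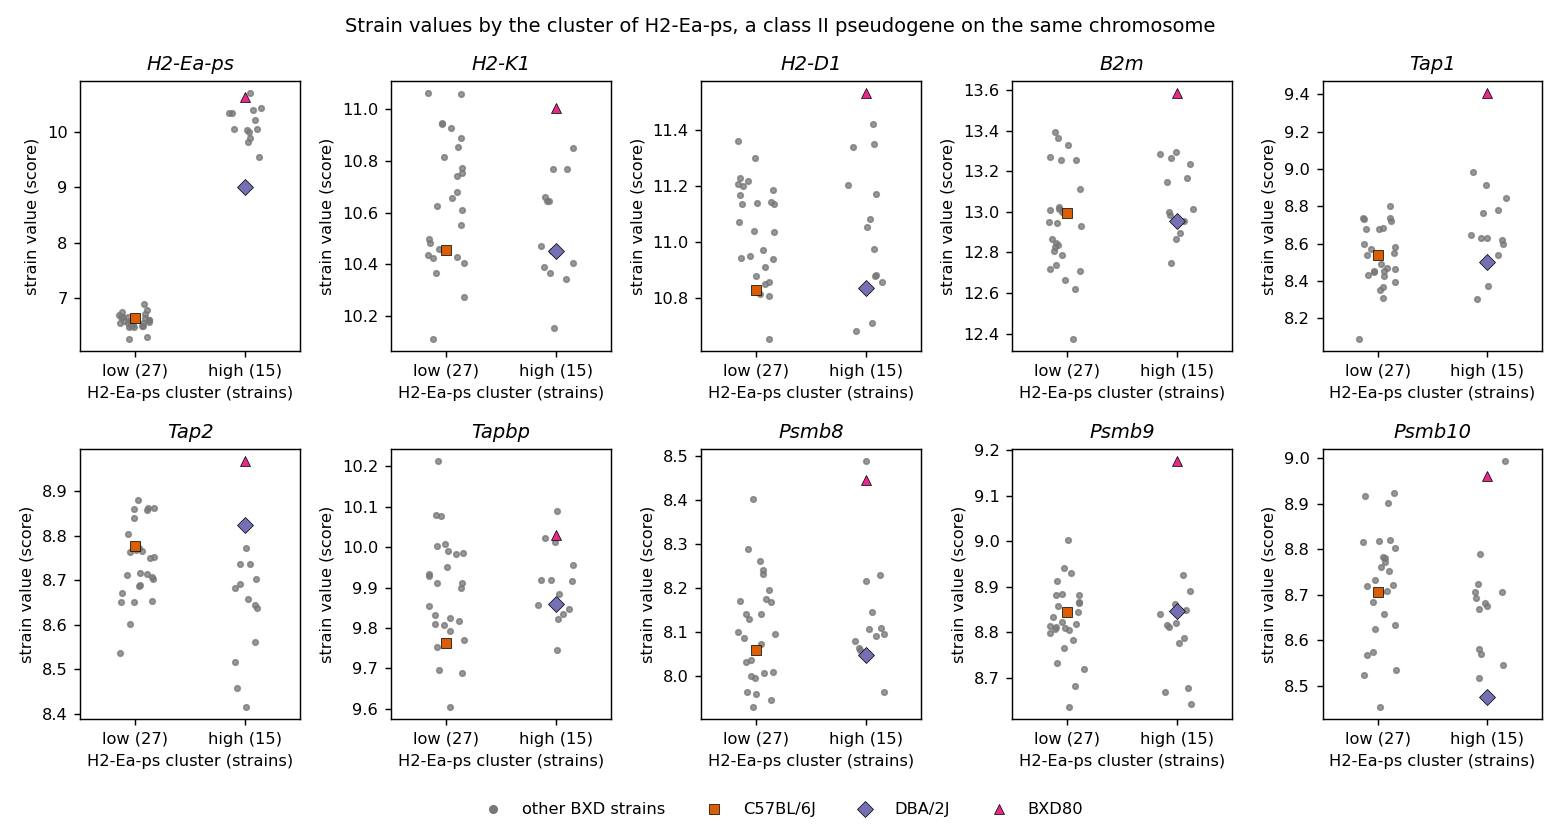
Strain values (vertical axes, score units) of H2-Ea-ps and the 9 class I genes for the 27 strains in the low and the 15 in the high H2-Ea-ps cluster. H2-Ea-ps, picked for this split, leaves a gap of 2.12 units between the clusters, and the ranges of every class I gene overlap.

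The width of the strain variation differed among the genes. H2-K1, B2m, Tap1 and H2-D1 had an SD over CD strains of 0.25, 0.26, 0.23 and 0.22, above those of 79.3%, 79.6%, 76.3% and 74.9% of all probesets. Tap2 and Psmb9 had SDs of 0.12 each, above those of 16% and 18.8%. Taking the score as a log2 value, the CD range was nominally 2.67-fold for Tap1, 2.47-fold for B2m, 2.06-fold for H2-K1 and 1.47-fold for Tap2.

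BXD80 stood at the top of the strains. On CD it was the highest of 42 strains for H2-D1, B2m, Tap1, Tap2, Psmb8, Psmb9 and Psmb10, and among the top 3 for H2-K1 and Tapbp. Tap1 scored 9.54 in BXD80 on CD, against 9.10 in the next strain, BXD73. On HFD, BXD80 was the highest of 37 strains for B2m (13.68), Tap1 (9.26) and Psmb9 (9.11), and ranked 5 for H2-K1, H2-D1 and Tap2. For Tapbp it ranked 15. Both of its arrays were in batch 1. BXD80 was singled out after its values were seen.

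The strain also led several interferon response genes. The deviation of BXD80 from the batch mean was 3.62 on CD and 2.37 on HFD for Iigp1, and 2.58 and 1.29 for Irgm1, both GTPases induced by interferon gamma. Ifit3, at 1.29 and 0.86, was also highest of all strains on both diets. In contrast, Isg15, Oas1a and Ifi44 ranked 27, 14 and 14 of 42 on CD. BXD80 was in the top 3 strains for 9 of 18 interferon response genes on CD and 4 of 18 on HFD, for 8 and 6 of 18 other class I genes, and for 5 and 3 of 17 companions. Over all probesets it was in the top 3 for 5.97% on CD and 9.27% on HFD, and in the lowest 3 for 6.66% and 8.45%.

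Cell type markers were high in BXD80 for some lists and low for others. It was in the top 3 for 3 of 7 T and NK cell markers on CD and 4 of 7 on HFD. The 3 on CD were Cd3e, Cd3g and Cd2, while Cd3d ranked 41 of 42. The T and NK cell list had a median score of 7.04, below the median probeset mean of 7.855. How much of its signal was background was not measured. The strain was in the top 3 for 0 of 9 myeloid, 0 of 6 endothelial, 0 of 6 fat cell, 0 of 3 fibroblast and 0 of 6 muscle markers on both diets. It was instead among the lowest 3 strains for 2 of 9 myeloid markers on CD and 5 of 9 on HFD, where Cd68, Emr1, Csf1r, Lyz2 and Mrc1 were lowest of all 37 strains. Of the fibroblast markers, Pdgfra and Dcn were lowest of all strains on both diets. Among fat cell markers, 0 of 6 on CD and 3 of 6 on HFD were in the lowest 3, and among endothelial markers 0 and 2 of 6. The part of these cell types in the values of BXD80 was not tested.

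The next comparison asked whether strains kept their order from CD to HFD. H2-K1, H2-D1, B2m and Tap1 kept it, and the other 5 genes were not called. Over 37 strains, after batch means were removed within each diet, Pearson's r was 0.692 for B2m, 0.648 for Tap1, 0.643 for H2-D1 and 0.636 for H2-K1. Spearman's rho for them was 0.620, 0.535, 0.651 and 0.642. The permutation p of r was 1e-05 for B2m, the smallest 100000 draws can give, and 5e-05, 2e-05 and 4e-05 for the others. Adjusted over all probesets, the p of r was between 0.000145 and 0.00102 for these 4 genes. Thus 4 of 9 genes were called, beside 10.1% of all probesets, and the median r was 0.368 over the 9 genes and 0.140 over all probesets.

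Tapbp reached r = 0.368 (rho = 0.404, permutation p = 0.0249 and 0.0136, adjusted p = 0.155 for r). Psmb8, Psmb9, Psmb10 and Tap2 had r of 0.288, 0.278, 0.273 and 0.258, with permutation p between 0.0854 and 0.123 and adjusted p between 0.320 and 0.391. Their rho was 0.175, 0.0474, 0.343 and 0.215, with permutation p of 0.299, 0.784, 0.0381 and 0.203. Hence the heavy chains, the light chain and Tap1 passed the test and tapasin, Tap2 and the 3 proteasome subunits did not, but the difference between these r values was not tested.

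**Figure D4:**
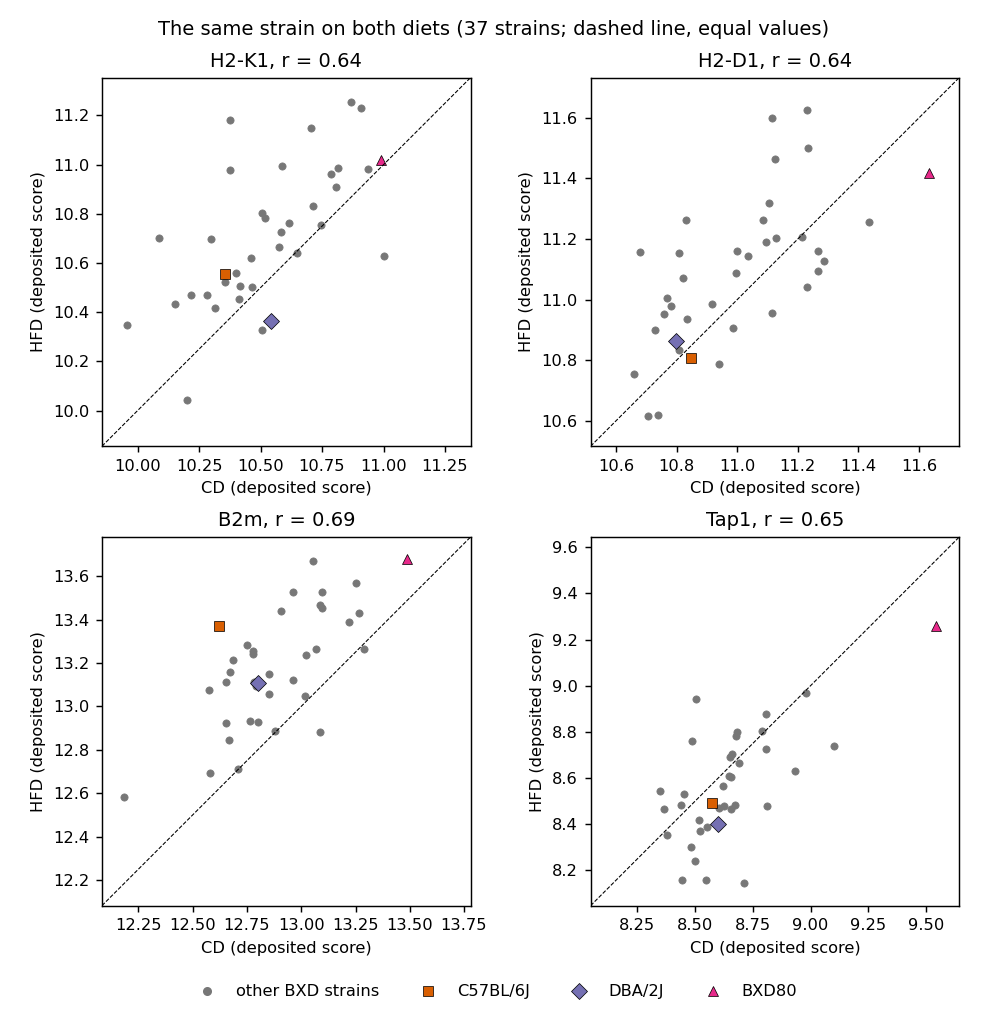
Deposited score on HFD against CD for the 37 strains with both diets, for H2-K1, H2-D1, B2m and Tap1, with the line of equal values dashed. The r in each title was taken after batch means were removed. Strains high on CD tend to be high on HFD, most B2m points lie above the line, and BXD80 lies apart for Tap1.

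Leaving out the 2 strains farthest from the CD median gave r of 0.684 for H2-K1, 0.628 for H2-D1, 0.574 for B2m and 0.487 for Tap1. BXD80 was among the 2 for all 9 genes. Without BXD80 alone, r was 0.494 for Tap1 and fell to 0.0731 for Psmb9, and the 4 genes remained called. Within batches, the 12 strains with both arrays in batch 1 gave 0.693 for H2-K1, 0.762 for H2-D1, 0.538 for B2m and 0.809 for Tap1, and the 17 strains in batch 2 gave 0.716, 0.709, 0.767 and 0.487. Over the 8 strains with arrays in different batches, r was 0.508, 0.298, 0.919 and 0.678. Tap2 and Psmb9 had opposite signs in the batches, with r of 0.479 and 0.552 in batch 1 and -0.180 and -0.282 in batch 2.

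Covariation was examined next, since genes of 1 pathway can rise and fall together across strains. On CD, all 36 pairs of the 9 genes had r above 0, with a median of 0.427, and on HFD 33 of 36 did, with a median of 0.306. The median r of a class I gene with all probesets was -0.0143 on CD. The adjusted p of a pair came from the r of its first-named gene with every probeset. It called 7 of 36 pairs on CD and 6 of 36 on HFD, beside 0.445% and 1.07% of all relations of the 9 genes with the other probesets. Tapbp alone made most of that background, with 3.51% of its relations called on CD and 9.13% on HFD, and the other 8 genes together had 0.0615% and 0.0654%. An unadjusted permutation p below 0.05 was reached by 24 pairs on CD and 18 on HFD. The share of all relations at that unadjusted threshold was not computed. The 2 diets share strains and are not independent samples.

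H2-K1 and H2-D1 formed the closest pair, with r = 0.759 on CD (rho = 0.752, adjusted p = 0.000163) and 0.840 on HFD (rho = 0.821, adjusted p = 2.59e-06). H2-K1 and Tapbp had 0.681 on CD (rho = 0.661) and 0.784 on HFD (rho = 0.782). H2-D1 and Tap1 had 0.653 (rho = 0.632) and 0.726 (rho = 0.745), and H2-D1 and Tapbp had 0.617 (rho = 0.574) and 0.696 (rho = 0.728). Permutation p of r and rho for these 4 pairs lay between 1e-05 and 0.00012 on both diets. They were the 4 pairs called on both diets. The heavy chain genes are closely related, as their promoter stretches above show. Probe sequences were not used here, so the share of signal that probesets of related class I genes have in common was not measured.

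On CD alone, H2-D1 with Psmb8 (r = 0.622, adjusted p = 0.0138), Tap1 with Tapbp (r = 0.574, adjusted p = 0.0448) and Tap1 with Psmb9 (r = 0.581, adjusted p = 0.0396) were also called. On HFD these pairs had r of 0.407, 0.442 and 0.404. HFD added H2-K1 with Tap1 (r = 0.665, adjusted p = 0.0189, against 0.551 on CD) and Tap2 with Psmb9 (r = 0.619, adjusted p = 0.0384, against 0.496 on CD). Whether r differs between diets was not tested. Tap1 and Psmb9 start 225 bases apart, but Tap1 varied more closely with H2-D1 than with Psmb9 on both diets, and that difference was not tested either.

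None of the pairs with B2m was called on either diet. Its highest r on CD was 0.581 with Tap1 (permutation p = 1e-05, adjusted p = 0.139), the same size as that of Tap1 with Psmb9, which was adjusted over the relations of Tap1. It had 0.440 with H2-D1 and 0.414 with H2-K1 on CD. On HFD, B2m had r of 0.612 with Tap1, 0.555 with H2-K1 and 0.482 with H2-D1. With Tap2 its r was 0.00936 on CD and 0.160 on HFD. Tap2 with Tap1, the 2 parts of 1 transporter, had r of 0.195 on CD (permutation p = 0.215) and 0.406 on HFD (permutation p = 0.0129), and was called on neither diet. Among the 3 immunoproteasome subunits, Psmb8 with Psmb9 had r = 0.503 on CD (permutation p = 0.00096, adjusted p = 0.561) and 0.177 on HFD. Without BXD80 the CD value was 0.322. Psmb8 with Psmb10 had 0.308 on CD and 0.287 on HFD, and Psmb9 with Psmb10 had 0.281 and 0.0427.

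**Figure D5:**
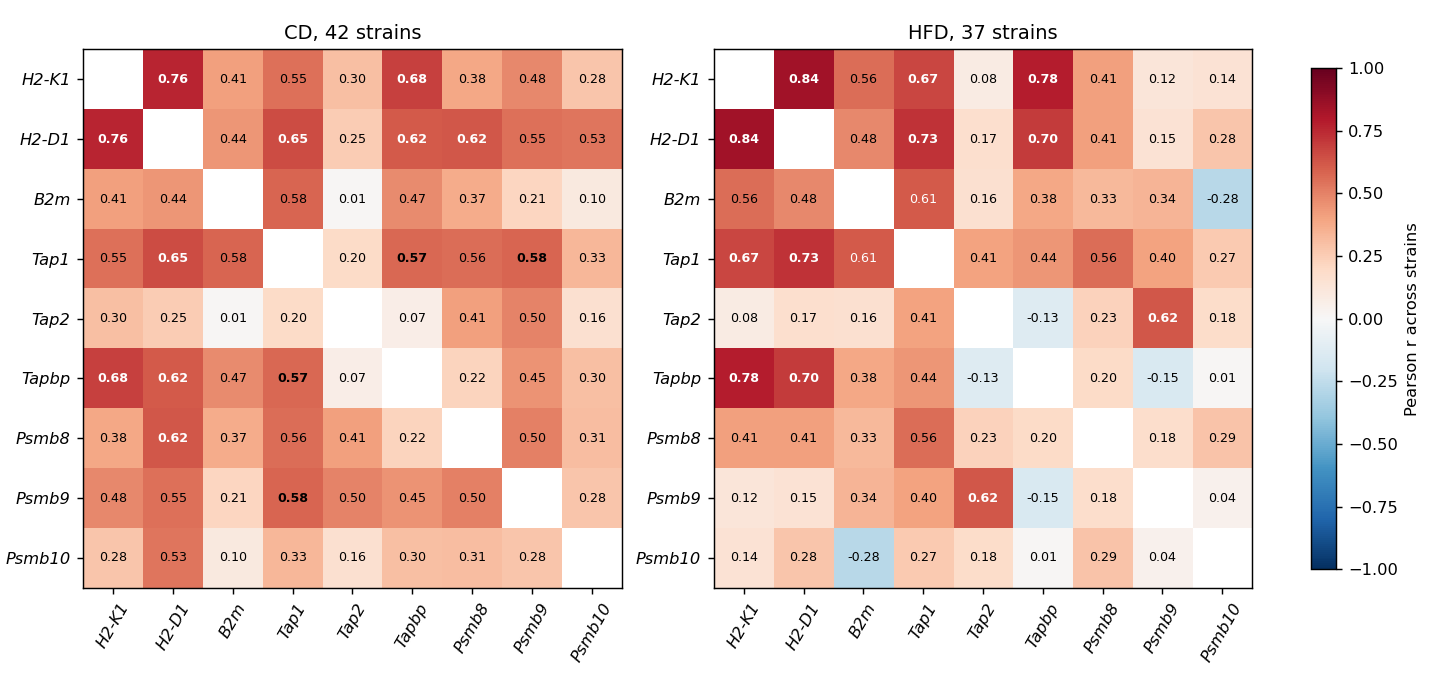
Pearson's r of each pair of the 9 genes across 42 CD strains and 37 HFD strains, coloured from blue (-1) to red (1), with bold type for an adjusted p below 0.05. The block of H2-K1, H2-D1, Tap1 and Tapbp is red on both diets, while most cells of Tap2 and Psmb10 are paler.

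Several of these pairs were not called without BXD80, and several differed between batches. Without BXD80, 2 of 36 pairs were called on CD, H2-K1 with H2-D1 (r = 0.731) and H2-K1 with Tapbp (r = 0.650), and 5 of 36 on HFD. The CD value of Tap1 with Psmb9 was then 0.381, that of H2-D1 with Tap1 0.530 and that of H2-D1 with Psmb8 0.510. The other pairs no longer called on CD were H2-D1 with Tapbp, at 0.567, and Tap1 with Tapbp, at 0.522. With BXD80 their r was 0.617 and 0.574, so the lost call came with a small change in r. Without the 2 strains farthest from the median of the first gene, 1 pair was called on CD, H2-K1 with H2-D1 (r = 0.718). In batch 1 alone the CD value of H2-K1 with H2-D1 was 0.720, and in batch 2 alone 0.808. H2-K1 with Tap2 had 0.634 in batch 1 and -0.310 in batch 2, and H2-K1 with Psmb9 0.735 and 0.0706, so these relations did not hold within both batches. The difference between batches was not tested.

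The genes most like each member on CD, by Pearson's r over 42 strains among all named genes, included other class I genes for some members. For H2-K1 they were H2-Q6 (0.816), H2-D1, Tapbp, Gm7609 (0.645) and H2-gs10 (0.642). For H2-D1 they were 9930111J21Rik2 (0.771), H2-K1, H2-T23 (0.732), Gbp6 (0.709) and Gbp2 (0.705). Tap1 had the highest values of all, with Ifgga2 (0.922), Cd274 (0.909), Tgtp1 (0.869), H2-T23 (0.867) and Iigp1 (0.855). On HFD the values of Ifgga2 and Cd274 with Tap1 were 0.901 and 0.914, and without BXD80 they were 0.872 and 0.847 on CD. Cd274 encodes PD-L1, the ligand of an inhibitory T cell receptor, and Tgtp1 and Iigp1 encode interferon-induced GTPases.

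Psmb8 was most like Gm12250 (0.665), Irf9 (0.663) and H2-T23 (0.646), and Psmb9 most like Tgtp1 (0.686) and Irgm1 (0.639). On HFD the values were 0.598, 0.342 and 0.603 for Psmb8 and 0.293 and 0.340 for Psmb9. Tapbp was nearest to H2-gs10 (0.738) and Oasl2 (0.701), with 0.741 and 0.615 on HFD. B2m was nearest to H2-Q7 (0.625), Emd (0.613) and Parp14 (0.590), with 0.577, 0.212 and 0.501 on HFD. For Tap2 the nearest were Dnaic2 (0.677) and 4921517D21Rik (0.637), with 0.378 and 0.133 on HFD, and for Psmb10 Amy1 (0.635) and Hnmt (0.625), with 0.453 and 0.0972. None of these lists used a test, and the order within them is a description.

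The mean of 18 interferon response genes was set beside each class I gene across strains. On CD its r was 0.862 with Tap1 (rho = 0.781), 0.754 with H2-D1 (rho = 0.714), 0.629 with Psmb9 (rho = 0.518) and 0.574 with H2-K1 (rho = 0.584). It was 0.576 with Psmb8 (rho = 0.433), 0.545 with Psmb10 (rho = 0.418), 0.533 with B2m (rho = 0.439) and 0.525 with Tapbp (rho = 0.546). These 8 of 9 genes passed on CD, beside 2.18% of probesets outside the list at or below the largest permutation p that passed (0.00945), with a permutation p adjusted over the 198 relations computed (9 genes, 11 lists, 2 diets) between 0.000198 and 0.00247. Tap2 had r = 0.245 (permutation p = 0.119, adjusted 0.262).

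On HFD 6 of 9 genes passed, beside 1.82% of probesets. The r was 0.861 with Tap1, 0.708 with H2-D1, 0.632 with H2-K1, 0.577 with B2m, 0.548 with Psmb8 and 0.509 with Tapbp. It was 0.285 with Psmb9 (permutation p = 0.0868, adjusted 0.212), 0.275 with Psmb10 (permutation p = 0.0996, adjusted 0.232) and 0.289 with Tap2. Leaving out the 2 strains farthest in the list mean gave CD values of 0.749 for Tap1, 0.662 for H2-D1, 0.424 for Psmb9, 0.531 for H2-K1 and 0.314 for Psmb8. Without BXD80 the CD values were 0.776 for Tap1, 0.675 for H2-D1, 0.452 for Psmb9, 0.514 for H2-K1, 0.387 for Psmb8, 0.378 for Psmb10, 0.402 for B2m, 0.457 for Tapbp and 0.0208 for Tap2.

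Across strains, 8 marker lists of other cell types and of muscle were set beside the 9 genes in the same way. The 144 relations were split evenly between CD and HFD, and 5 on CD and 8 on HFD had an adjusted permutation p below 0.05. By the t distribution of r at the largest permutation p that passed, the counts were 5 and 7. Within each diet, these shares were close to those of all probesets. Of the relations of all probesets to the same list means, 8.42% on CD and 11.9% on HFD were at or below that p. The endothelial mean had r = 0.532 with Tapbp on CD (rho = 0.564, adjusted permutation p = 0.00225) and 0.444 on HFD (adjusted 0.0287). With H2-K1 it had 0.429 on CD (adjusted 0.0236) and 0.127 on HFD, and with H2-D1 0.399 (adjusted 0.0388) and 0.101. The myeloid mean had r = 0.522 with Tapbp (adjusted 0.00543), 0.511 with H2-D1 (adjusted 0.00756) and 0.432 with H2-K1 (adjusted 0.0365) on HFD, against 0.303, 0.370 and 0.220 on CD, where none passed. With Tap1 it had -0.0566 on CD.

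The T and NK cell mean had r = 0.516 with Tap2 on CD (rho = 0.487, adjusted permutation p = 0.00346) and 0.458 (adjusted 0.0211) on HFD. With Psmb9 it had 0.421 on HFD (adjusted 0.0407) and 0.218 on CD (adjusted 0.320), but 0.0631 with Tap1 and 0.0259 with H2-D1 on CD. The fat cell mean had r = 0.422 with H2-D1 on HFD (adjusted 0.0407) and 0.351 on CD (adjusted 0.0803). The fibroblast mean had r = -0.407 with Tap1 on CD (rho = -0.239, adjusted 0.0365), which was -0.182 without BXD80, and -0.154 on HFD (adjusted 0.567). The muscle mean had r = -0.346 with Tapbp on CD (adjusted permutation p = 0.0836) and -0.488 on HFD (adjusted 0.0130). T and NK cell markers were dim, with a median score of 7.04 against a median probeset mean of 7.855. The part of cell type content in the strain differences of the class I genes was not tested.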

How the data were processed

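The authors hybridised pooled quadriceps RNA to Affymetrix Mouse Gene 1.0 ST arrays and, per the labels, used Affymetrix Expression Console. The deposited values are a score per probeset, scaled to a mean of 8.0 and an SD of 2.0 on each array, and the summarization, background method and log base were not given in the sources used here. Array medians lay between 7.78 and 7.92, and arrays correlated at r of 0.961 to 0.992. The number of arrays, not a read depth, limits the precision.

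Groups, strains and 2 batches came from the titles, and the extraction protocol in the labels gives 2 times of RNA extraction and of array runs. Batch 1 held 18 CD and 17 HFD arrays and batch 2 held 24 and 20. The chow column of BXD92 was matched to the title BXD92a. Diet was fitted with limma 3.58.1 (lmFit, eBayes) with diet and batch over all 35556 probesets, and the parental contrast with a coefficient per strain. The tests were planned for log2 values and run on the score. Adjusted p-values are Benjamini-Hochberg over all probesets, except for correlations with a list mean. Correlations were taken after batch means were removed within each diet, with two-sided permutation tests of 100000 draws, and the p of r adjusted over all probesets came from the t distribution of r. For list means, the permutation p were adjusted over the 198 list relations. The arrays of 37 strains pair with those of the same strain on the other diet, as the labels give, 5 strains had CD arrays alone, and the members' r between diets were 0.258 to 0.692. Student's t-test, which the methods of the study use, was an alternative. For shares over all probesets, relations with list means were taken from the t distribution of r at the same p. Scripts were tested on simulated data. The genes, companion lists, marker lists, motifs and tests were chosen with earlier results of these data known, the interferon regulatory factor motif was replaced by its shorter core after a first search of these promoters had been seen, and the text names the 9 genes, list members, genes among the 5 most like each member, and BXD80. Not every gene of these lists is reported here. The software was Python 3.11.15 with scipy 1.17.1, scikit-learn 1.9.0, numpy 2.4.6 and pandas 2.3.3, and R 4.3.3.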

Additional observations from a re-analysis of the deposited data

How the results depend on the processing

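The limits are the pools, which hide the spread between animals, 1 array per parent and diet, a score of unstated log base, and probesets whose overlap with related genes was not measured. Each gene had 1 probeset, so the mean over probesets of a gene gave no other value. Alternatives changed the batches, the strains used, the block, the normalization, dim probesets and the test, and leaving out BXD80 was chosen after its values were seen. For diet, the members called numbered 1 in batch 1 alone, 1 in batch 2 alone and 5 with the replicate block, and 3 under the other settings. All probesets called numbered 4491 in batch 1, 8691 in batch 2 and 5292 without dim probesets, which tests fewer probesets, and 14441 with the block. Smaller groups also entered the fits within batches. The methods' t-test called 13650 probesets and 3 members. Called directions did not change in any setting. Uncalled values near 0 changed sign for Tap2, to 0.00178 in batch 2, 0.00310 with the block, 0.00357 without BXD63, 0.00039 without BXD80 and 0.0165 with arrays centred on their median, and for Psmb9, to 9.85e-05 with that centring. No member was called between parents under any setting, though H2-K1 turned to -0.00303 on quantile normalization, and H2-D1 and Psmb9 to 0.00800 and 0.0105 on centring. No member formed separate clusters under any setting.

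For r between diets, 0 members were called in the 12 strains of batch 1, 1 in the 17 of batch 2 and 0 in the 8 with arrays in different batches, and 4 or 5 otherwise. Quantile normalization added Tapbp (r = 0.476, adjusted p = 0.0352). Tap2 and Psmb9 turned to -0.180 and -0.282 in batch 2, and Tapbp to -0.262 across batches.

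For CD covariation, pairs called numbered 1 without the 2 farthest strains, 0 in batch 1, 1 in batch 2 and 2 without BXD80, against 7, and 5 to 8 otherwise. Pairs not called changed sign. With HFD arrays, B2m with Psmb10 had r = -0.280 (-0.317 without BXD80), Tap2 with Tapbp -0.127 (-0.129) and Tapbp with Psmb9 -0.150 (-0.160). Without the 2 farthest strains, B2m had -0.0430 with Tap2 and -0.0867 with Psmb10, and Tap2 had -0.0862 with Tap1, -0.186 with Tapbp and -0.0265 with Psmb10. Without BXD80 these 5 were -0.157, -0.0931, -0.0443, -0.0468 and -0.00403. In batch 2, Tap2 had -0.310 with H2-K1, -0.251 with H2-D1, -0.212 with B2m, -0.133 with Tap1, -0.328 with Tapbp and -0.0508 with Psmb10, while Psmb10 had -0.0437 with Psmb8 and -0.00629 with Psmb9. By Spearman's rho, B2m had -0.0429 with Tap2 and -0.0669 with Psmb10, and Tap2 had -0.00624 with Tapbp. B2m with Tap2 was -0.0195 on quantile normalization and -0.0102 without the parents. The cause of these changes was not tested.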
